A study of Mus musculus with 46 samples.

Results

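The genes of the mitochondrial respiratory chain and of ATP synthase were followed in mouse liver over the first 4 h after surgery. They were taken as the probe sets with a single gene symbol that starts with Nduf, Uqcr, Atp5, Cox4, Cox5, Cox6, Cox7 or Cox8, or with Sdh followed by a, b, c or d, or that is Cycs or Cyc1. The rule uses names only and no measured value. It took 103 of 12488 probe sets, which stand for 75 of 8251 named genes. Complex I had 42 probe sets of 31 genes, complex II 6 of 6, complex III 9 of 8, complex IV 23 of 15 and ATP synthase 22 of 14, and cytochrome c had 1 probe set. The rule also takes in 6 probe sets of 4 assembly factors, Ndufaf1, Ndufaf4, Sdhaf1 and Sdhaf2, which are counted with complexes I and II. A further 10 probe sets that fit the name rule but carry several symbols were left out.

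The animals were male CB6F1 hybrid mice, 5 to 6 months old (young) or 25 to 27 months old (old). Young mice came from Jackson Laboratories and old mice from the National Institute on Aging, so age and supplier cannot be told apart. Whole liver was taken without an operation at 0 h, or 0.5, 1, 2 or 4 h after partial hepatectomy (PH), which removes 70% of the liver, or after a sham operation. The labels name injected avertin and inhaled isoflurane as the anaesthetics. Arrays numbered 3 per age at 0 h and at every PH time and 2 per age at every sham time, 46 in 18 groups. Whether each array stands for an animal of its own is not in the labels, and p-values therefore speak to array-to-array spread, possibly technical.

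The respiratory chain lies in the inner mitochondrial membrane. Complex I (NADH dehydrogenase) and complex II (succinate dehydrogenase, also an enzyme of the citric acid cycle) feed electrons into ubiquinone, complex III passes them to cytochrome c, and complex IV (cytochrome c oxidase) hands them to oxygen. Complexes I, III and IV pump protons, and ATP synthase uses the proton gradient to make ATP, on which hepatocytes depend for gluconeogenesis, urea synthesis and growth. A few core subunits are encoded by mitochondrial DNA, and 0 of those listed had a probe set here, so all values concern nuclear genes.

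Values are log2 expression, on which a difference of 1 is a 2-fold change, and they are not compared between probe sets. Array medians lay between 6.22 and 6.33. Scores of the 16 sham arrays on principal component 1 (26.8% of the variance) ran from 7.75 to 30.3, and those of the 30 remaining arrays reached at most 6.27. Array old PH 1 h replicate 3 had the lowest score, -34.1, and the lowest mean member deviation from 0 h, -0.21. The bacterial spike-in probe sets averaged 8.31 and 8.35 at 1 and 2 h after PH against 9.74 at 0 h. Hepatocyte markers were high in all arrays, with Alb between 13.3 and 14.0, and all 9 of 9 measured markers (12 listed) averaged at or above the 91.8th percentile of probe sets.

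Most promoters of these genes lie in GC-rich sequence, and several hold the binding sequence of nuclear respiratory factor 1 (NRF1), a transcription factor known for its sites in respiratory chain genes. RefSeq promoters of the GRCm38.p6 build, 300 bases that span the transcription start, were found for 61 of the 75 genes (66 promoters). The NRF1 core, whose letters are the capitals in the sequences given next, was searched on both strands and was in 13 of the 66 (19.7%). It was in 4.6% of all 32851 promoters and in 8.42% of those of genes on the array. The ETS sequence CCGGAAGT, as bound by GABP, was in 6.06% (4 promoters), above the 3.89% of all promoters and below the 6.68% of those of genes on the array. The YY1 sequence was in 3.03% (2 promoters) against 0.633% of all and 1.14% of array genes, and the estrogen-related receptor (ERR) sequence TCAAGGTCA in 1.52% (1 promoter) against 0.423% and 0.262%. Member promoters had a median GC content of 59.0% and 19 CpG dinucleotides, against 52.7% and 7 over all promoters, and the part of base composition in these shares was not tested. A match is a description of letters and not of binding.

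For 6 members named in the results, the promoter is given 5' to 3' in lower case with matches in capitals. Sdha, Sdhd and Sdhaf1 stand for complex II, Ndufa6 for complex I, Uqcrc1 for complex III and Atp5o for ATP synthase. They lie at chr13:74350191-74350490 (Sdha), chr9:50603800-50604099 (Sdhd), chr7:30322326-30322625 (Sdhaf1), chr15:82354242-82354541 (Ndufa6) and chr16:91931581-91931880 (Atp5o) on the minus strand, and chr9:108936398-108936697 (Uqcrc1) on the plus strand. The capitals mark NRF1 cores, except the last run of Sdhd, TGACCTTGA, which is the ERR sequence on the other strand. Sdhaf1 holds none of the 4 sequences in this window. All the others shown hold an NRF1 core, so they are not typical of the 66 member promoters, of which 13 (19.7%) hold it.
Sdha: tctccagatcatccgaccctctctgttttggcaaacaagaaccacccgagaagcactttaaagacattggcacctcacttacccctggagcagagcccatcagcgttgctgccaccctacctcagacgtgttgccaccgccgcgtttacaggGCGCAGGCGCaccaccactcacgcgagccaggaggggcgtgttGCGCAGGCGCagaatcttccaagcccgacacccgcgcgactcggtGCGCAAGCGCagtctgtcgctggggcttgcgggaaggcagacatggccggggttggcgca
Sdhd: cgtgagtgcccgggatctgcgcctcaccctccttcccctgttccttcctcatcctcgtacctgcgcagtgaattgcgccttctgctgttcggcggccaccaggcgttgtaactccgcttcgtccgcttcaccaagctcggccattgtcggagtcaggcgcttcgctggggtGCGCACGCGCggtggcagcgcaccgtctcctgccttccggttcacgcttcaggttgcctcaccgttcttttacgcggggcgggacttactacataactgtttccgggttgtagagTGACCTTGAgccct
Sdhaf1: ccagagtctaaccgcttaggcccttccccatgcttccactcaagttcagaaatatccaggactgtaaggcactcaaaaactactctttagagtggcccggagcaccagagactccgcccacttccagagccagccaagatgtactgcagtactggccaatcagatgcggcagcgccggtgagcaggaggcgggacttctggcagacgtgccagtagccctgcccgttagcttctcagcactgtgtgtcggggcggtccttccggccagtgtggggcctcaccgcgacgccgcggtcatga
Ndufa6: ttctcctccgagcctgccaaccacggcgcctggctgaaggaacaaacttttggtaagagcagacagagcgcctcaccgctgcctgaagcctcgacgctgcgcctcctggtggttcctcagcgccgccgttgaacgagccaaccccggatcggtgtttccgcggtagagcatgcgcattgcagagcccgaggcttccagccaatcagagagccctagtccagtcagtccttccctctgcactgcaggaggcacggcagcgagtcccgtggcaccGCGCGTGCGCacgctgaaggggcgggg
Uqcrc1: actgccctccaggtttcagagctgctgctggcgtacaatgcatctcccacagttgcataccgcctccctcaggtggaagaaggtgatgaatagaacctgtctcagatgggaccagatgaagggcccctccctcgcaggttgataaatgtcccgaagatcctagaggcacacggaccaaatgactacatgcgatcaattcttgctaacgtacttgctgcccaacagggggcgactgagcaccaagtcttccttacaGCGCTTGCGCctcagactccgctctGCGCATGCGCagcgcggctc
Atp5o: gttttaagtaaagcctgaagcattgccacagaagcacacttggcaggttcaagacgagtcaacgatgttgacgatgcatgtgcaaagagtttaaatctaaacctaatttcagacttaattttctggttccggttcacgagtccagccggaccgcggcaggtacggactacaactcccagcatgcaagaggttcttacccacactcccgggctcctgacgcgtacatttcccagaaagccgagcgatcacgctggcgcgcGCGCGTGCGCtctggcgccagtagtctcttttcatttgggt
Sdha holds 3 NRF1 cores, and Uqcrc1 holds 2 stretches of which the second, GCGCATGCGC, reads as the core on both strands.

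The members differed little between replicates and between groups. The median standard deviation within groups was 0.14, the same as over all 12422 tested probe sets. The median distance between the highest and the lowest of the 18 group means was 0.48, against 0.50 over all probe sets. It exceeded 1 for 7 members (6.80%, against 11% of all), which were probe sets of Ndufa1, Ndufb8, Sdha, Ndufb2, Ndufaf4, Cox6c and Cox6b2. A sham group had the highest mean in 5 of them and the lowest in the other two, Sdha and Ndufaf4 (96756_at). Within groups the members varied together slightly, with a mean pairwise correlation of residuals of 0.13 over the 46 arrays against 0.01 over all pairs of tested probe sets. All pairs share the arrays and their normalisation.

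**Figure D1:**
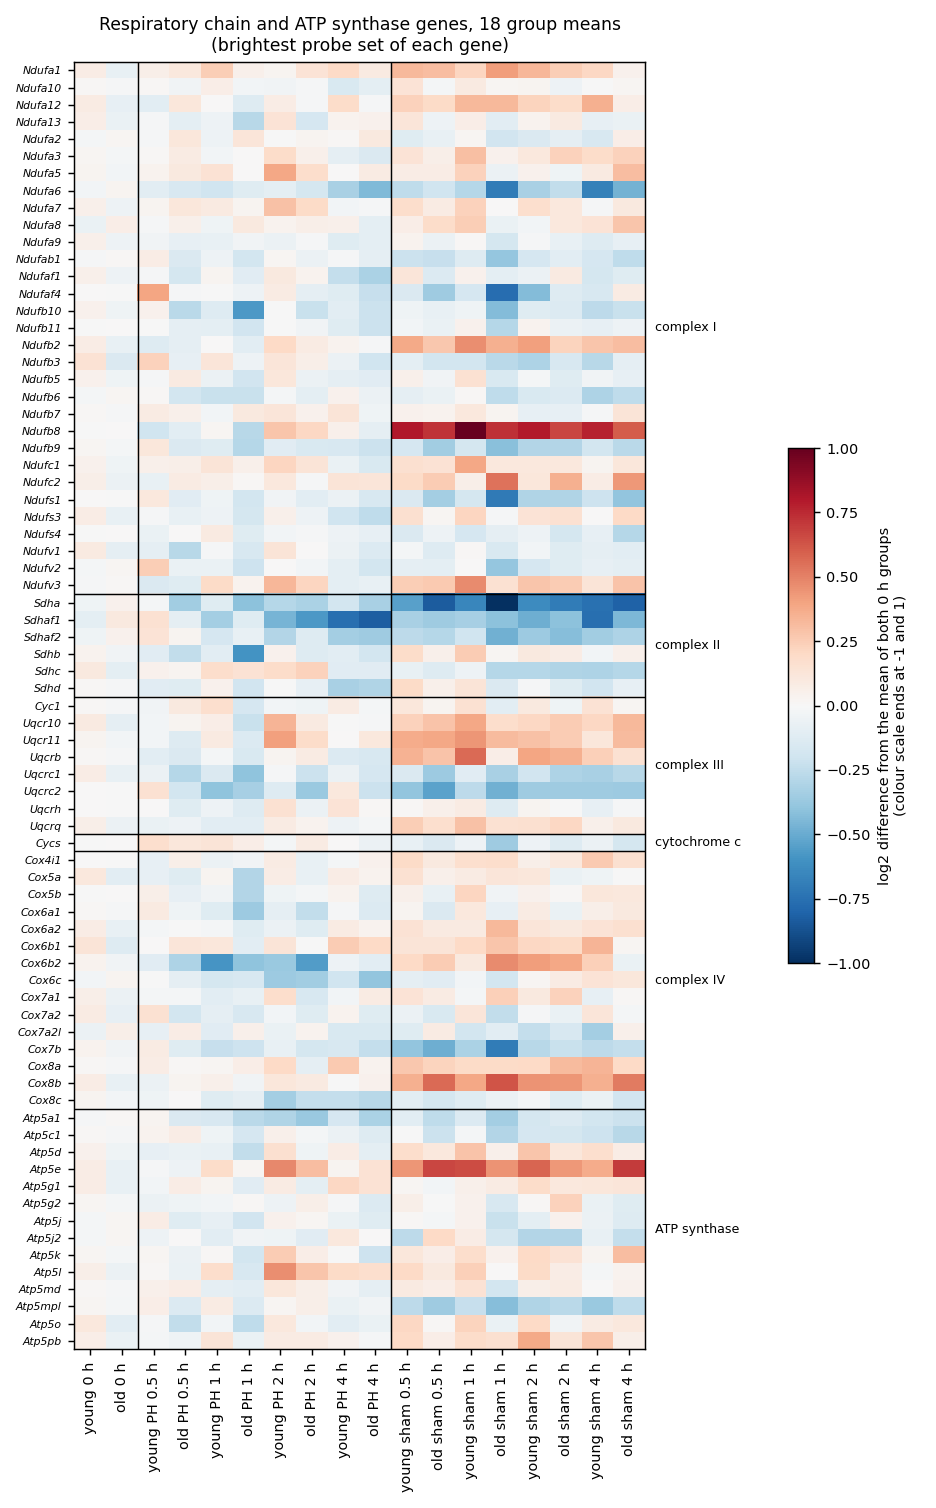
Colour gives the log2 difference of each of the 18 group means (columns) from the mean of both 0 h groups, for the brightest probe set of each of the 75 genes (rows, by complex). The sham columns hold the darkest cells, red for Ndufb8 and Atp5e and blue for Sdha, and the PH columns are pale except for Sdhaf1 and a few others.

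The first comparison asks what PH did to these genes relative to unoperated liver, as the mean of both ages (6 against 6 arrays). At 0.5 h no member passed (limma, adjusted p under 0.05 over all 12422 probe sets), 3 had an unadjusted p under 0.05, and 0.0886% of all probe sets were called (0.0805% higher, 0.00805% lower). At 1 h 5 members fell and 0 rose, 4.85% of members against 3.72% of all probe sets (1.96% higher, 1.75% lower). At 2 h 6 rose and 6 fell, 11.7% against 12.8% (5.74% higher, 7.08% lower). At 4 h 3 rose and 9 fell, 11.7% of members against 23.5% of all probe sets (11.5% higher, 12% lower), with a median difference of -0.04 against 0.02 over all. In at least 1 of the 4 comparisons 23 members were called (22.3%, against 29.7% of all), and 80 in none. In whole liver, fewer cells of a type and less RNA per cell cannot be told apart. Some cell type markers were called at 4 h after PH, where 11.5% of all probe sets were higher and 12% lower. Several of the marker counts do not stand clear of these shares. At 4 h neutrophil markers averaged 5.97 (range 5.72 to 6.16) against 5.56 (range 5.41 to 5.69) at 0 h, with 2 of 9 called higher. Of the endothelial markers 2 of 8 were higher and 2 lower, of the striated muscle markers 3 of 6 higher and 1 lower, and of the hepatocyte markers 2 of 9 higher, while 0 of 10 Kupffer cell and macrophage markers were called. Their part in the member differences at 4 h was not tested.

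**Figure D2:**
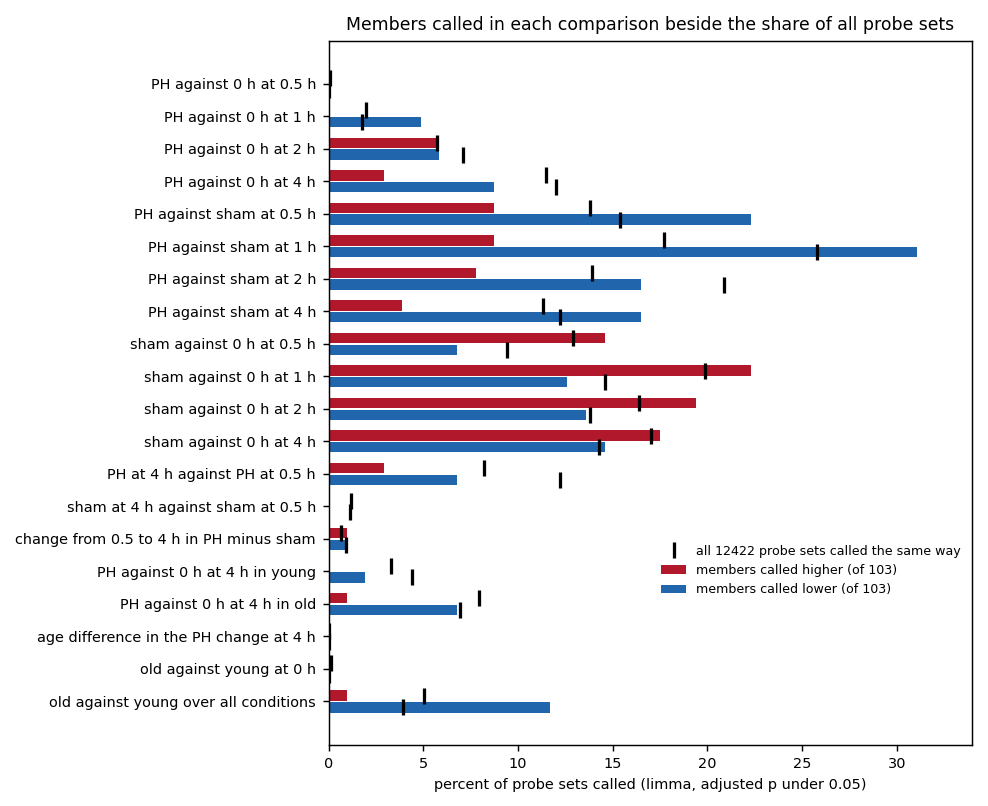
Bars give the percent of the 103 members called higher (red) or lower (blue) in each comparison at an adjusted p under 0.05, and black ticks give the percent of all 12422 probe sets called the same way. At 4 h after PH both bars lie left of their ticks, and for old against young over all conditions the lower bar, 11.7%, lies right of its tick at 3.9%.

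Complex II was the complex whose members all lay below 0 at 4 h after PH, 6 of 6 with a median of -0.28. Of all probe sets 45.7% lay below 0 and 12% were called lower. The 3 members that passed were the assembly factors Sdhaf1 and Sdhaf2 and the subunit Sdhd. Sdhaf1, an assembly factor needed for succinate dehydrogenase, ranged from 7.34 to 7.62 with a median of 7.48 at 0 h and from 6.43 to 7.07 with a median of 6.68 at 4 h after PH. The 2 groups did not overlap, and both ages were low. The difference was -0.79 ± 0.09 (SE, n = 6 against 6, limma adjusted p = 1.0e-07), after 0.03 at 0.5 h, -0.23 at 1 h (adjusted p = 0.152) and -0.52 at 2 h (adjusted p = 0.000177). Its probe set carries an _f suffix, one of several that mark probes that may bind related transcripts.

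Sdhd, a membrane anchor of complex II, ranged from 10.33 to 10.77 with a median of 10.47 at 0 h and from 9.98 to 10.31 with a median of 10.23 at 4 h after PH. The groups did not overlap, though the highest PH array came close to the lowest 0 h array. The difference was -0.31 ± 0.09 (limma adjusted p = 0.0107), and it no longer passed without old 0 h replicate 1 (adjusted p = 0.0519). Sdhaf2, which attaches flavin to the catalytic subunit, fell by 0.35 (adjusted p = 0.00711), with overlapping groups. The catalytic subunits did not pass, Sdha at -0.25 ± 0.13 (adjusted p = 0.154) and the iron-sulphur subunit Sdhb at -0.15 ± 0.09 (adjusted p = 0.280). The other anchor, Sdhc, was at -0.11 ± 0.08 (adjusted p = 0.320).

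In complex I, 3 members fell and 1 rose at 4 h after PH among 42. Ndufa6, an accessory subunit, ranged from 8.05 to 8.37 with a median of 8.21 at 0 h and from 7.66 to 7.99 with a median of 7.83 at 4 h. The groups did not overlap, and the old PH arrays were the lowest. The difference was -0.38 ± 0.09 (limma adjusted p = 0.00124). The assembly factor Ndufaf1 (100892_at) fell by 0.28 (adjusted p = 0.00618), and its second probe set (161507_f_at) was at -0.18 and did not pass (adjusted p = 0.137). The core subunit Ndufs3 fell by 0.23 (adjusted p = 0.0299). That call was lost without any 1 of young 0 h replicates 1 and 2, old 0 h replicate 1, young PH 4 h replicate 2 and old PH 4 h replicates 2 and 3, with adjusted p up to 0.0676. The assembly factor Ndufaf4 rose by 0.44 at 161353_r_at (adjusted p = 0.00149), while its brighter probe set 96756_at was at -0.18 (adjusted p = 0.275).

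In complex III no member passed at 4 h, and its 9 probe sets lay between -0.15 and 0.07. Cytochrome c (Cycs) was at -0.03 (adjusted p = 0.873), and cytochrome c1 (Cyc1) was at 0.03 at 95072_at and -0.11 at 162469_r_at, neither past the threshold. In complex IV, Cox8c, a form of subunit 8 known from testis, ranged from 9.35 to 9.56 with a median of 9.40 at 0 h and from 9.07 to 9.24 with a median of 9.17 at 4 h (100965_at). The groups did not overlap, and the difference was -0.26 ± 0.05 (adjusted p = 0.000539). Its other probe set, 161475_f_at, was at 0.14 (adjusted p = 0.112). Cox6c fell by 0.30 at 100550_f_at (adjusted p = 0.00719), while its probe sets 162319_i_at and 100551_r_at were at -0.06 and 0.11 and did not pass. The tissue isoforms Cox4i1, Cox6a1, Cox6a2, Cox6b1, Cox7a1, Cox7a2, Cox7a2l, Cox8a and Cox8b did not pass, and Cox6b1 came nearest with 0.22 ± 0.09 (adjusted p = 0.0597).

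In ATP synthase 2 members rose and 1 fell at 4 h. Atp5l, a subunit of the membrane part that helps hold dimers of the enzyme together, ranged from 11.02 to 11.30 with a median of 11.20 at 0 h, from 11.31 to 11.71 with a median of 11.53 at 2 h and from 11.31 to 11.40 with a median of 11.35 at 4 h (93014_at). Every 2 h and 4 h PH array was above every 0 h array. The difference was 0.37 ± 0.06 at 2 h (limma adjusted p = 2.81e-05) and 0.18 ± 0.06 at 4 h (adjusted p = 0.0224). The 4 h call was lost without old PH 4 h replicate 3, old 0 h replicate 1 or young 0 h replicate 2 (adjusted p up to 0.0677). The second Atp5l probe set, 99678_f_at, was at -0.25 at 2 h (adjusted p = 0.0650). At 4 h it was at -0.15 in young and -0.16 in old livers (limma adjusted p = 0.585 and 0.449).

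Atp5a1, the alpha subunit of the catalytic head, ranged from 10.94 to 11.20 with a median of 11.07 at 0 h, from 10.53 to 10.86 with a median of 10.74 at 2 h and from 10.71 to 10.96 with a median of 10.84 at 4 h. The 0 h and 2 h groups did not overlap, and the 0 h and 4 h groups did. It fell by 0.34 at 2 h (adjusted p = 0.00103) and by 0.24 at 4 h (adjusted p = 0.00996), and in sham livers at 4 h it was at -0.20 (adjusted p = 0.0452). Atp5g1, a gene of the membrane c ring, rose by 0.18 at 161324_r_at (adjusted p = 0.0421), a call that remained in 4 of the 12 fits that each left out 1 array. The libraries whose removal ended it were young 0 h replicates 1 and 2, old 0 h replicates 2 and 3, young PH 4 h replicates 1 and 2 and old PH 4 h replicates 1 and 3, with adjusted p up to 0.161.

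**Figure D3:**
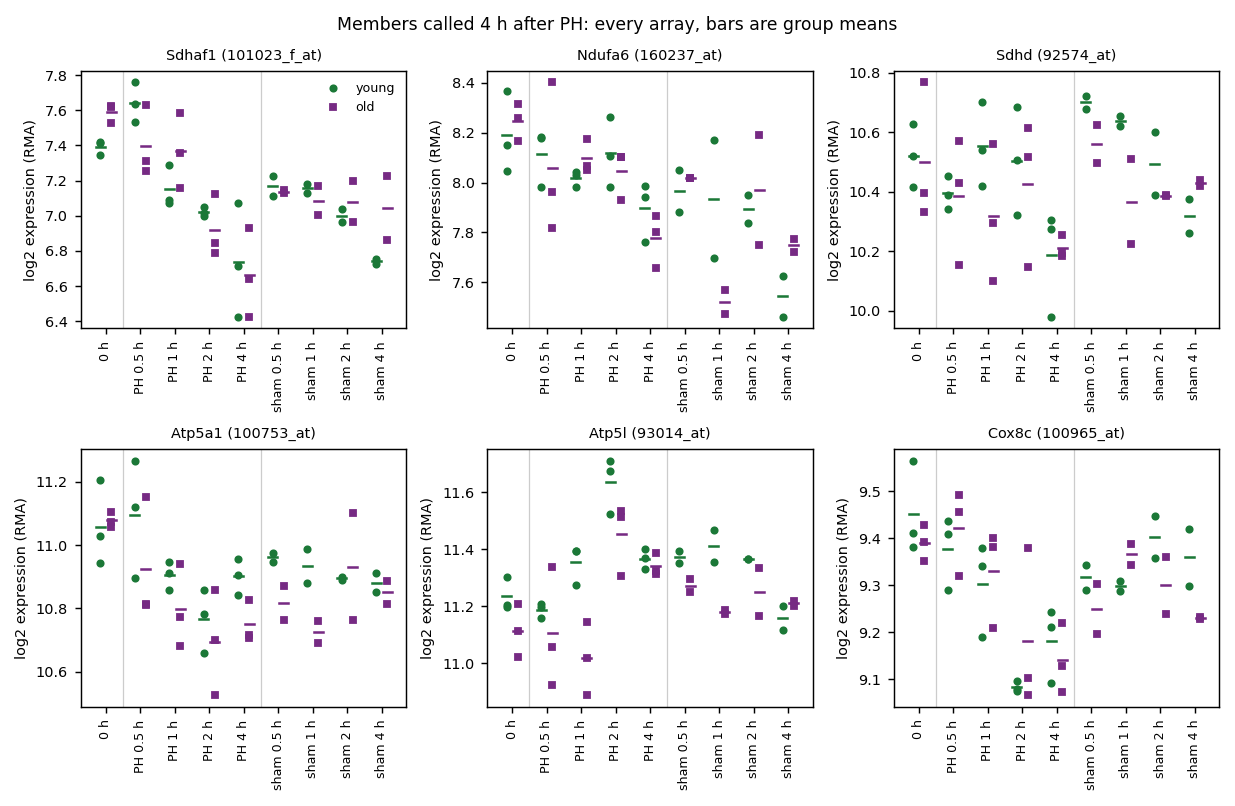
Every array is a point (green circles young, purple squares old), bars are group means, and the vertical axis is log2 expression at 0 h and at 0.5, 1, 2 and 4 h after PH or sham surgery. Sdhaf1 steps down with time after PH and also lies below 0 h after sham surgery, and Atp5l at 93014_at peaks at PH 2 h.

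The calls at 1 and 2 h after PH involved other members. At 1 h Cox6b2 (160813_r_at) fell by 0.50, Uqcrc2 by 0.36, Sdhb by 0.35, Ndufb10 (101525_at) by 0.35 and Uqcrc1 by 0.27, with limma adjusted p between 0.0180 and 0.0466. Cox6b2 ranged from 5.75 to 6.01 with a median of 5.88 at 0 h and from 5.13 to 5.68 with a median of 5.35 at 1 h, with no overlap. Uqcrc1 and Uqcrc2 are the core proteins of complex III. All 5 calls were lost when the spike-in mean, which was low in these arrays, entered the fit as a covariate. It ran from 7.76 to 9.25 at 1 h after PH and from 8.79 to 10.6 at 0 h. The covariate thus differs between the compared groups, and the loss of calls does not show their source. The count fell to 0 without old 0 h replicate 3, young PH 1 h replicate 2 or old PH 1 h replicate 3. It fell to 1 without young 0 h replicate 2 or young PH 1 h replicate 1, and to 3 without old 0 h replicate 2. Neutrophil markers averaged 6.24 (range 5.74 to 7.88) at 1 h against 5.56 (range 5.41 to 5.69) at 0 h, 2 of 9 being called higher, with 1 of 9 hepatocyte markers higher and 1 lower and no call in the other lists, and their part in the result was not tested.

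At 2 h, besides Atp5l, the ATP synthase epsilon subunit Atp5e rose by 0.40, Uqcr11 of complex III by 0.30, Cox4i1 (93788_at) by 0.29 and Ndufa5 and Ndufa7 of complex I by 0.28 and 0.24, with limma adjusted p between 0.0134 and 0.0466. Besides Sdhaf1 and Atp5a1, the complex IV probe sets Cox6b2 (160813_r_at), Cox6c (100550_f_at and 162319_i_at) and Cox8c (100965_at) fell by 0.46, 0.35, 0.33 and 0.29. Atp5e ranged from 9.21 to 9.53 with a median of 9.35 at 0 h and from 9.28 to 9.92 with a median of 9.86 at 2 h, so the groups overlapped. With the spike-in covariate 2 calls were left in place of 12, and Atp5l and Cox8c were the members called at 2 h that passed under all 9 alternatives other than leaving out arrays. The limit of the covariate given for 1 h holds here too, with spike-in means from 7.94 to 9.05 at 2 h. The count was 7 without young 0 h replicate 2 or young PH 2 h replicate 2, and 6 without old PH 2 h replicate 3. The Atp5e call was lost without old PH 2 h replicate 3 (adjusted p = 0.0560). Those of Uqcr11, Cox4i1, Ndufa5 and Ndufa7 remained in 2 to 4 of the 12 fits that left out 1 array. Neutrophil markers averaged 5.94 (range 5.78 to 6.07) at 2 h, above every 0 h array, with 2 of 9 called higher. Also called were 1 of 9 hepatocyte markers higher and 2 lower, 1 of 8 endothelial markers in each direction, 1 of 3 bile duct markers higher and 1 of 6 striated muscle markers lower, and their part in the result was not tested.

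The second comparison set sham-operated livers against 0 h. It shares the 0 h arrays with the PH comparison, so the 2 sets of values are not independent. The 16 sham arrays stood apart from all others on principal component 1, and their spike-in means lay between 9.05 and 9.55, against 7.68 to 10.9 over the 30 other arrays. Which arrays were normalised together is not given in the sources used here, so surgery and whatever else the sham arrays share cannot be told apart, here or in PH against sham. At 0.5 h 15 members were higher and 7 lower in sham livers, 21.4% of members against 22.3% of all probe sets (12.9% higher, 9.4% lower). At 1 h 23 were higher and 13 lower, 35% against 34.5% (19.9% higher, 14.6% lower). At 2 h 20 were higher and 14 lower, 33% against 30.2% (16.4% higher, 13.8% lower). At 4 h 18 were higher and 15 lower, 32% against 31.3% (17% higher, 14.3% lower). The shares of members called lay near the background at each time. In all 4 comparisons 14 members were called the same way (13.6%, against 13.9% of all), 8 higher and 6 lower. After PH 0.0644% of all probe sets were called the same way at all 4 times. No member could be, since none passed at 0.5 h after PH. From 0.5 to 4 h after sham surgery no member was called, and 9 had an unadjusted p under 0.05 (limma). Of all probe sets 2.3% were called, 1.2% higher and 1.1% lower.

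Of the members that were low in sham livers at all 4 times, Sdha, the catalytic subunit of succinate dehydrogenase, differed most. It ranged from 8.15 to 8.89 with a median of 8.62 at 0 h and from 7.02 to 8.15 with a median of 7.86 over the 16 sham arrays. The groups met only at the lowest 0 h array and the highest sham array. The differences were -0.69, -0.94, -0.66 and -0.77 (SE 0.14 each) at 0.5, 1, 2 and 4 h, with limma adjusted p of at most 0.000805. After PH Sdha lay at -0.18, -0.26, -0.30 and -0.25 and did not pass at any time. The others were Sdhaf1, the complex III core proteins Uqcrc1 and Uqcrc2, the complex IV subunit Cox7b and the ATP synthase subunit Atp5mpl. In complex II 5 of 6 members lay below 0 at 4 h, with a median of -0.31 and 4 called lower, beside 44.3% of all probe sets below 0 and 14.3% called lower. Sdhb at 0.01 and Sdhd at -0.14 did not pass. Sdhaf1 was at -0.60 ± 0.10 at 4 h after sham surgery (adjusted p = 5.47e-05), beside the -0.79 after PH, and Ndufa6 at -0.57 ± 0.10 (adjusted p = 4.05e-05), beside -0.38.

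The members high in sham livers at all 4 times were probe sets of Ndufb8, Ndufa1, Ndufb2 (2 probe sets), Atp5e, Cox4i1, Cox6c and Cox8b. Ndufb8, an accessory subunit of complex I, ranged from 9.03 to 9.19 with a median of 9.10 at 0 h and from 9.59 to 10.19 with a median of 9.85 over the 16 sham arrays. Every sham array was above every 0 h array. The differences were 0.76, 0.87, 0.73 and 0.69 (SE 0.14 each; limma adjusted p of at most 0.000256). Atp5e likewise lay between 9.56 and 10.14 over the sham arrays, above its highest 0 h array at 9.53, and was higher by 0.53 ± 0.12 at 4 h (adjusted p = 0.00118).

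For several of these genes a second probe set of the same gene gave a smaller value. Ndufa1, a small membrane subunit of complex I, ranged from 4.12 to 5.03 with a median of 4.40 at 0 h and from 5.23 to 6.08 with a median of 5.48 over the sham arrays at 98118_at, with no overlap and a difference of 1.16 ± 0.15 at 4 h (limma adjusted p = 1.39e-06). At 98117_at it ranged from 6.33 to 6.64 at 0 h and from 6.53 to 6.97 over the sham arrays. It was higher by 0.32, 0.31 and 0.29 at 0.5, 1 and 2 h (adjusted p of at most 0.00374), and the 4 h difference was 0.12 ± 0.07 (adjusted p = 0.206). Cox4i1, the common isoform of subunit 4, was higher by 0.58 ± 0.11 at 93788_at (adjusted p = 0.000130) and by 0.21 ± 0.09 at 102124_f_at (adjusted p = 0.0839). Cox6c was higher by 0.56 at 100551_r_at and 0.41 at 162319_i_at, and stood at 0.12 at 100550_f_at (adjusted p = 0.315). The 162319_i_at call was lost without old sham 4 h replicate 1 (adjusted p = 0.103). Of the 18 members called higher at 4 h, 9 carried a suffix for possible cross-hybridisation, as did 4 of the 15 called lower and 25 of the 70 not called. The differences between probe sets of a gene were not themselves tested.

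**Figure D4:**
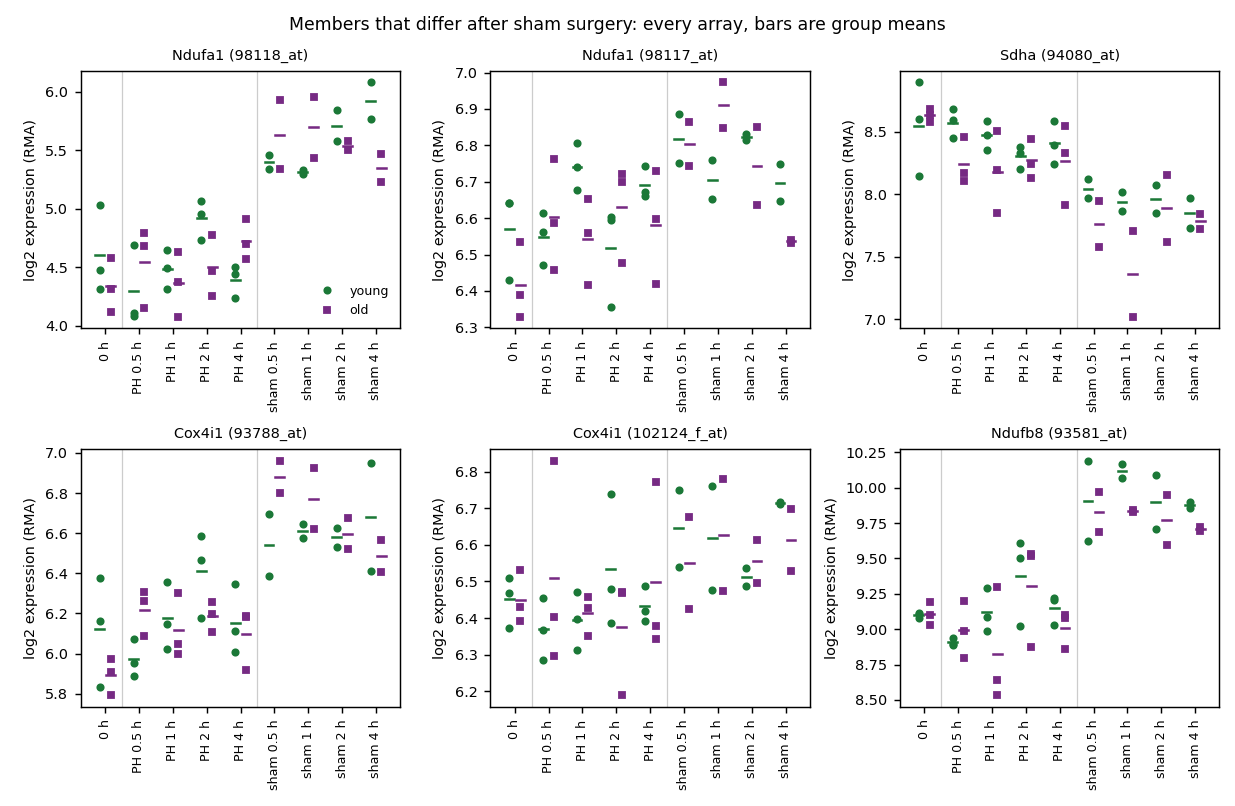
Every array is a point (green circles young, purple squares old), bars are group means, and the vertical axis is log2 expression in the same 9 conditions. The sham arrays stand above all others for Ndufa1 98118_at (5.23 to 6.08 against at most 5.06) and overlap them for Ndufa1 98117_at.

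The counts after sham surgery moved with single arrays. The shares of all probe sets called in fits that left out 1 array are not given here. At 0.5 h 14 members were called without young sham 0.5 h replicate 1, against 22. At 2 h 20 were called without young sham 2 h replicate 2 and 16 without old sham 2 h replicate 2, against 34. At 4 h 21 were called without young 0 h replicate 2 and 18 without old sham 4 h replicate 2, against 33. Some cell type markers were also called in sham livers. The background for sham against 0 h at 4 h was 17% called higher and 14.3% called lower. Several of the marker counts given next lie near that background. Over all sham arrays the endothelial markers averaged 6.21 (range 6.06 to 6.35, 8 of 9 listed measured) against 6.39 (range 6.30 to 6.44) at 0 h, with 4 called lower and 1 higher at 4 h. Striated muscle markers averaged 5.55 (range 5.43 to 5.73, 6 of 6) against 5.37 (range 5.25 to 5.54), with 3 called higher. At 4 h 3 of 9 neutrophil markers, 2 of 5 B and plasma cell markers and 1 of 7 stellate cell and fibroblast markers were also higher, and 2 of 9 hepatocyte markers were higher and 2 lower. Their part in the member differences was not tested.

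The third comparison set PH directly against sham at the same time (6 against 4 arrays). At 0.5 h 9 members were higher and 23 lower after PH, 31.1% against 29.2% of all (13.8% higher, 15.4% lower). At 1 h 9 were higher and 32 lower, 39.8% against 43.5% (17.7% higher, 25.8% lower). At 2 h 8 were higher and 17 lower, 24.3% against 34.8% (13.9% higher, 20.9% lower). At 4 h 4 were higher and 17 lower, 20.4% against 23.5% (11.3% higher, 12.2% lower), and by direction 3.88% of the members were higher and 16.5% lower. The 2 h count was 15 without young sham 2 h replicate 2 or old sham 2 h replicate 2. At 4 h the members furthest below sham were Ndufa1 (98118_at) at -1.08, Ndufb8 at -0.71, Ndufb2 (160342_r_at) at -0.68, Cox4i1 (93788_at) at -0.46 and Cox6c at -0.47 (162319_i_at) and -0.46 (100551_r_at), with limma adjusted p of at most 0.00359. The first of these Cox6c calls was lost without old sham 4 h replicate 1 (adjusted p = 0.0640). Those above sham were Sdha at 0.52 ± 0.14 (adjusted p = 0.00734), Ndufaf4 (161353_r_at) at 0.31, Ndufb6 (92615_at) at 0.27 and Atp5mpl at 0.26. The last 2 were lost without young sham 4 h replicate 2 or old sham 4 h replicate 1 (Ndufb6) and young sham 4 h replicate 1 (Atp5mpl), with adjusted p up to 0.0948, and Ndufaf4 kept its call in 2 of 10 such fits. Sdhaf1 at -0.19 ± 0.10 (adjusted p = 0.185), Sdhd at -0.17 ± 0.10 (adjusted p = 0.213) and Ndufa6 at 0.19 ± 0.10 (adjusted p = 0.152) did not pass, so the lower values of these 3 genes after PH were not separated from sham at 4 h.

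Taking changes since 0.5 h removes what an operation's arrays share at all times. From 0.5 to 4 h after PH 3 members rose and 7 fell (9.71%, against 20.4% of all, 8.2% higher and 12.2% lower). That count was 5 without young PH 0.5 h replicate 3, 6 without old PH 4 h replicate 1 and 16 without old PH 0.5 h replicate 1. Sdhaf1 fell by 0.82 (limma adjusted p = 6.94e-08) and Atp5l (93014_at) rose by 0.21 (adjusted p = 0.00932). In sham livers they stood at -0.26 ± 0.11 (adjusted p = 0.304) and -0.14 ± 0.07 (adjusted p = 0.436) over the same interval. These were the 2 members (1.94%, against 1.58% of all, 0.644% higher and 0.934% lower) whose change differed between PH and sham. The difference in change was -0.56 ± 0.15 for Sdhaf1 (adjusted p = 0.0430) and 0.34 ± 0.09 for Atp5l (adjusted p = 0.0459). The second Atp5l probe set, 99678_f_at, was at -0.37 ± 0.14 in the same test and did not pass (adjusted p = 0.204). Sdhaf1 kept the call in 6 and Atp5l in 3 of the 20 fits that each left out 1 array, and the 2 calls were lost when only the compared groups were fitted.

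The change 4 h after PH was then taken in each age. In young livers 2 members fell, Sdhaf1 by 0.65 (limma adjusted p = 0.00130) and Cox8c (100965_at) by 0.27 (adjusted p = 0.0254), 1.94% of members against 7.66% of all (3.28% higher, 4.39% lower). The Cox8c call was lost without young 0 h replicate 1, young PH 4 h replicate 1 or young PH 4 h replicate 3. In old livers 7 fell and 1 rose (7.77%, against 14.9% of all, 7.96% higher and 6.93% lower). Sdhaf1 fell by 0.92, Ndufa6 by 0.47, Cox6c (100550_f_at) by 0.43, Sdhaf2 by 0.40, Ndufb6 (161660_r_at) by 0.35, Atp5a1 by 0.33 and Cox8c (100965_at) by 0.25, and Ndufaf4 (161353_r_at) rose by 0.60. Ndufb6 161660_r_at and Ndufaf4 161353_r_at were dim, with means of 2.88 and 3.35 over the 46 arrays. The brighter probe sets of these genes, 92615_at and 96756_at, were at -0.08 and -0.23 (limma adjusted p = 0.691 and 0.367). The other Cox8c probe set was at 0.25 and those of Cox6c at 0.11 and -0.14, and none of these passed. The old count was 3 without old 0 h replicate 2 or old PH 4 h replicate 3. Sdhaf1, Ndufa6 and Ndufaf4 kept their calls in all 6 fits that left out 1 of these arrays. The age difference itself was not called for any member at 4 h (0% of all; 2 members with an unadjusted p under 0.05, limma) nor over all 4 times in an F test (0% of all; 5 such members). The longer list in old livers is therefore not shown to be a difference between the ages. Among the marker lists, 2 of 9 neutrophil, 2 of 9 hepatocyte and 2 of 6 striated muscle markers were higher in old livers at 4 h than at 0 h, and 2 of 8 endothelial markers were higher and 1 lower. In young livers 1 hepatocyte and 1 endothelial marker were higher, and the part of these genes in either count was not tested.

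The last comparison set old against young livers. At 0 h no member was called (0.145% of all, 0.129% higher and 0.0161% lower; 6 members with an unadjusted p under 0.05, limma), with a median member difference of -0.06, the same as over all probe sets. As the mean over all 9 conditions, 12 members were lower and 1 higher in old livers, 12.6% of members against 8.93% of all probe sets. By direction, 11.7% were lower against 3.9% of all, and 0.971% higher against 5.02%. Of the 103 members, 87 lay below 0, against 58.4% of all probe sets, and the median was -0.06 against -0.01. The differences were small: the called ones lay between -0.19 and 0.14. Members below 0 numbered 35 of 42 in complex I, 5 of 6 in complex II, 9 of 9 in complex III, 17 of 23 in complex IV and 20 of 22 in ATP synthase.

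Cox7a2, the liver form of complex IV subunit 7a, ranged from 10.47 to 10.79 with a median of 10.61 over the 23 young arrays and from 10.25 to 10.66 with a median of 10.47 over the 23 old arrays. The ranges overlapped widely, and the old mean was lower in all 9 conditions. The difference was -0.16 ± 0.03 (limma adjusted p = 0.000850). Uqcrc1 ranged from 10.16 to 10.67 with a median of 10.41 in young and from 9.90 to 10.50 with a median of 10.23 in old arrays, a difference of -0.16 ± 0.04 (adjusted p = 0.00528) with the old mean lower in 8 of 9 conditions. Atp5o, the stalk subunit that joins the catalytic part to the membrane part, ranged from 9.43 to 9.89 with a median of 9.68 in young and from 9.21 to 9.77 with a median of 9.54 in old arrays, a difference of -0.16 ± 0.04 (adjusted p = 0.00677). In each of these 3 genes the ranges of the ages overlapped.

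In complex I the lower members were Ndufs1, the largest core subunit, at -0.16 ± 0.04 (limma adjusted p = 0.0168), Ndufv1, which binds NADH, at -0.12, Ndufb10 (101525_at) at -0.17, Ndufa13 at -0.11 and Ndufaf4 (161353_r_at) at -0.19. In ATP synthase they were also Atp5c1 (92798_at), Atp5d (161145_f_at) and Atp5l (93014_at), each at -0.13, and in complex III Cyc1 (95072_at) at -0.11. No other probe set of these genes was called. The old mean was lower in 3 of 9 conditions at Atp5l 99678_f_at, 4 at Ndufb10 162280_f_at and 5 at Cyc1 162469_r_at. It was lower in 7 at Ndufaf4 96756_at, 8 at Atp5c1 92799_g_at and 6 to 8 at the other Atp5d probe sets. Cox7a2l, which takes part in joining complexes III and IV into supercomplexes, was the member called higher, 0.14 ± 0.04 (adjusted p = 0.0262), with a young median of 8.54 and an old median of 8.67. Without old sham 0.5 h replicate 1, 7 members were lower, against 12 with all arrays. The genes named next are therefore not all that lost a call. Calls of Ndufb10, Ndufv1, Cox7a2l and Atp5c1 were lost without single arrays: 3, 4, 2 and 22 of the 46 fits. Those arrays were, for Ndufb10, young sham 0.5 h replicate 1, old sham 0.5 h replicate 1 and old sham 1 h replicate 2. For Ndufv1 they were young sham 0.5 h replicate 2, old sham 0.5 h replicate 1, young sham 1 h replicate 2 and young sham 2 h replicate 1, and for Cox7a2l young sham 2 h replicate 2 and young sham 4 h replicate 2.

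**Figure D5:**
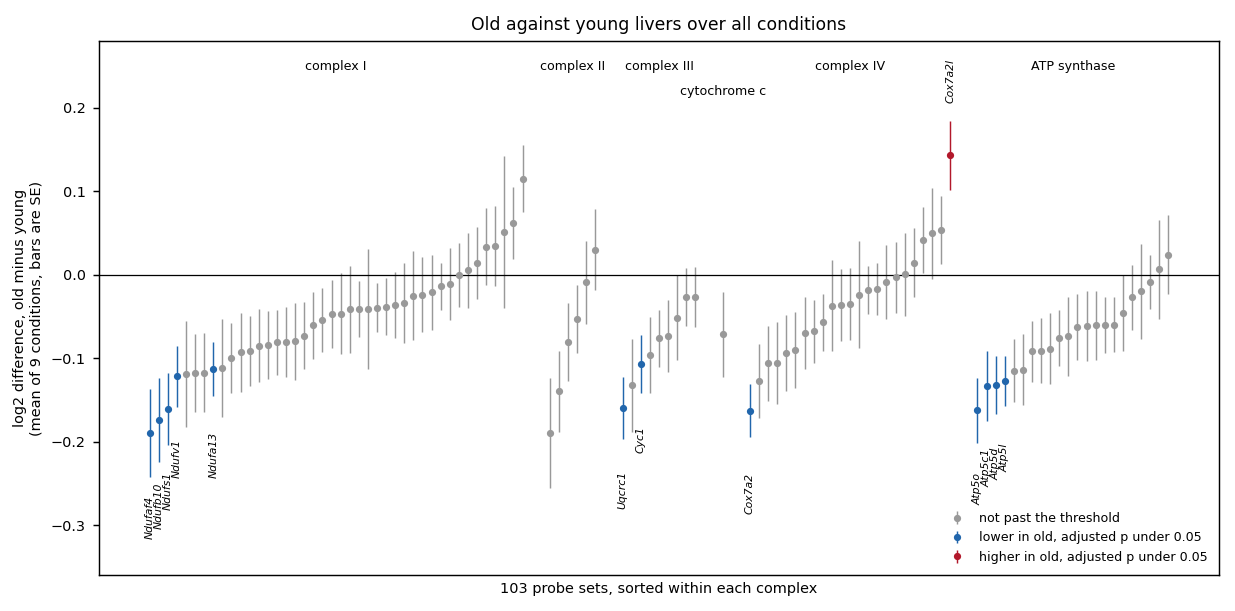
Each point is a member's log2 difference between old and young livers as the mean over 9 conditions, with its SE, sorted within each complex. Blue points are called lower and the red point, Cox7a2l, is called higher, and 87 of the 103 points lie below 0.

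By condition, the age difference rests on 2 or 3 arrays per age. The F test above called no member for a change in it over the PH times. Whether it varied between sham times was not tested. The median member difference was -0.16 at sham 1 h and -0.12 at PH 1 h, and 0.02 at sham 4 h, where 44 of 103 members lay below 0. Taken condition by condition, 2 members were lower at PH 1 h, 1.94% of members against 0.829% of all probe sets called lower there (2.03% in either direction, 1.2% higher). In each of the other 8 conditions no member was called by limma, with 2 to 22 members at an unadjusted p under 0.05 and 0.00805% to 0.459% of all probe sets called. Members counted below 0 in all 9 conditions were Atp5pb, Ndufs1, Ndufv1, Cox7a2 and Ndufb9, though Ndufb9 rounds to 0.00 at sham 2 h. Without the 16 sham arrays 7 members were lower (6.80%, against 4.48% of all) and none higher. Without both PH 1 h groups, one of which holds the array that stands apart, 5 were lower (4.85%, against 2.24% of all) and none higher. Without old sham 0.5 h replicate 1, 7 were lower (6.80%, against 2.85% of all) and 1 was higher. Kupffer cell and macrophage markers were higher in old livers, with 5 of 10 called and an average of 7.25 (range 6.40 to 8.52) against 6.86 (range 6.56 to 7.34). B and plasma cell markers averaged 6.93 (range 6.54 to 8.44) against 6.41 (range 6.13 to 6.62), with 2 of 5 higher, Ighm by 1.44 and Jchain by 0.93. Endothelial markers averaged 6.29 (range 6.06 to 6.45) against 6.36 (range 6.21 to 6.61), with 3 of 8 lower. Of the stellate cell and fibroblast markers 1 of 7 was higher and of the striated muscle markers 1 of 6 lower, and none of the neutrophil, T and NK cell, bile duct or erythroid markers was called. Hepatocyte markers averaged 12.1 in both ages, with 1 of 9 higher (Apob, 0.28) and 1 lower (Cps1, -0.19). The part of cell composition in the age difference was not tested.

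Probe sets of the same gene did not always agree. Of the 75 genes, 21 had several probe sets, 49 in all, and 5 genes had opposite calls within 1 comparison. Against sham at 0.5 h Atp5l was lower at 93014_at (-0.17) and higher at 99678_f_at (0.55). Against sham at 2 h Cox8c was at -0.22 (100965_at) and 0.18 (161475_f_at), and Ndufb7 at -0.27 (162323_at) and 0.16 (95698_at). From 0.5 to 4 h after PH Ndufaf4 was at 0.34 and -0.37, and Cox6c between -0.25 and 0.22. For these genes no direction of the gene can be given from the values.

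Genes of related mitochondrial pathways were read from lists, with 1 probe set per gene, the brightest. On that footing 2 of the 75 respiratory genes rose and 9 fell at 4 h after PH, and of all 8251 genes 10.9% rose and 14.1% fell. Of 61 genes of the mitochondrial ribosome, which makes the subunits encoded by mitochondrial DNA, 1 rose and 18 fell, among them Mrpl12 by 0.43, Mrpl44 by 0.55 and Mrpl36 by 0.44 (limma adjusted p of at most 0.000443). The 61 also held 20 lower and 1 higher in sham livers at 4 h, beside 13 lower and 7 higher of the 75 respiratory genes, where 16.4% of all genes were lower and 16.6% higher. Of 16 citric acid cycle genes 2 rose, Fh1 (fumarase) by 1.23 and Pdhb by 0.43, and 5 fell, among them Dld by 0.45 and Suclg1 by 0.40. In sham livers Fh1 was higher by 0.65 and Dld lower by 0.41.

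Of 11 regulators of mitochondrial biogenesis, 2 rose and 4 fell at 4 h after PH. Those that fell were Yy1 by 0.82 (limma adjusted p = 2.53e-05), Gabpa by 0.82 (adjusted p = 0.000705), Esrra by 0.27 and Ppara by 0.52. Yy1, Gabpa and Esrra encode factors whose sequences were searched in the promoters above. Yy1, Gabpa and Ppara were also lower in sham livers at 4 h, by 0.58, 0.74 and 1.05. For Yy1 the change from 0.5 to 4 h after PH minus that after sham was -0.83 (limma adjusted p = 0.0372). Of 17 import and chaperone genes 2 rose and 4 fell, of 10 carriers 3 fell, of 17 fatty acid oxidation genes 3 rose and 2 fell, and of 12 glycolysis genes 2 rose and 4 fell. Of 9 other assembly and haem genes 1 rose, and of 5 mitochondrial antioxidant genes 1 fell.

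Over all conditions, old livers were also lower in 7 of 17 fatty acid oxidation genes and higher in none, including Eci1 at -0.30 ± 0.05 (limma adjusted p = 0.000371), Cpt2 at -0.25 and Hadhb at -0.20. Of 16 citric acid cycle genes 3 were lower (Idh2 at -0.20) and 1 higher, and of 61 mitochondrial ribosome genes 4 were lower. Esrra, a regulator of oxidative metabolism, was lower by 0.14 ± 0.03 (adjusted p = 0.00617) among the 11 biogenesis regulators. On the same footing of 1 probe set per gene, 10 of the 75 respiratory genes were lower and 1 was higher, and of all 8251 genes 3.88% were lower and 5.61% higher.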

How the data were processed

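Liver RNA was labelled as biotinylated cRNA and hybridised to Affymetrix Murine Genome U74 version 2 arrays, per the labels' protocols. The deposited values are log2 expression values that the authors made with RMA, per the submitters' processing notes, whose version and joint normalisation sets those sources leave unstated. RMA equalises the distribution of the arrays, so a change shared by most probe sets would not be seen. Nothing was transformed further. For arrays, their number limits the precision.

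Of 12488 probe sets 66 controls were left out, and 12422 were tested; 10833 carried 1 gene symbol, 396 several and 1193 none in the platform annotation. Gene identifiers of all 103 members matched the gene table, and 0 symbols changed. A single model with 18 group means over 46 arrays was fitted (limma 3.58.1, R 4.3.3, lmFit and eBayes; 28 residual and 5.09 prior degrees of freedom). Comparisons were contrasts, adjusted by Benjamini-Hochberg over all 12422 probe sets and called at an adjusted p under 0.05. The script was tested on simulated data. The members, lists, named-gene rule and alternatives were chosen with earlier results of these data known. The rule names up to 10 passing members per direction and comparison, up to 4 per complex at 4 h after PH, the tissue isoforms and assembly factors, genes with disagreeing probe sets, and up to 3 genes per pathway list, and further genes were named after their values were seen. Alternatives were centring, a filter on the dimmest 25%, trend and robust settings, fitting the compared groups alone, array weights, 1 probe set per gene, leaving out suffixed probe sets, the replicate block, a spike-in covariate (9 probe sets) and leaving out each array.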

Additional observations from a re-analysis of the deposited data

Results flagged for a closer look

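For 2 members the change from 0.5 to 4 h differed between PH and sham livers in a test of that difference. They make up 1.94% of members, near the 1.58% of all probe sets called. Relative to the change in sham livers, the change after PH was -0.56 ± 0.15 for Sdhaf1 (limma adjusted p = 0.0430) and 0.34 ± 0.09 for Atp5l at 93014_at (adjusted p = 0.0459). The second Atp5l probe set, 99678_f_at, lay on the other side of 0 at -0.37 ± 0.14 and did not pass (adjusted p = 0.204). Both calls were lost when only the compared groups were fitted (adjusted p = 0.113 for Sdhaf1 and 0.0780 for Atp5l). Over the 20 fits that left out 1 array, Sdhaf1 lost the call in 14 and Atp5l in 17.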

How the results depend on the processing

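Fitting only the compared groups gave 2 called members for PH against 0 h at 1 h, 16 for PH against sham at 2 h, 1 for sham at 4 h against sham at 0.5 h, 0 for the change from 0.5 to 4 h in PH minus sham and 1 for young livers at 4 h. Array weights raised the counts to 8 and 24 at 1 and 2 h after PH, 34 for PH against sham at 4 h, 38 and 54 for sham against 0 h at 0.5 and 4 h, 2 for sham at 4 h against sham at 0.5 h, 5 for the change in PH minus sham, 13 for old livers at 4 h and 3 for old against young at 0 h. Leaving out suffixed probe sets, which tests fewer members, gave 2 and 6 for PH against 0 h at 1 and 2 h, 16, 26, 16 and 10 for PH against sham at 0.5, 1, 2 and 4 h, 11, 20 and 20 for sham against 0 h at 0.5, 2 and 4 h, 6 from PH 0.5 to 4 h, 1 for the change in PH minus sham, and 1 and 4 in young and old livers at 4 h. With 1 probe set per gene the counts were 15 and 12 for PH against sham at 2 and 4 h and 20 for sham against 0 h at 4 h. The spike-in covariate gave 0 and 2 at 1 and 2 h after PH, 4 for the change in PH minus sham and 1 in young livers at 4 h, and trend and robust settings gave 1 for the change in PH minus sham. Except where a setting tests fewer members, the cause was not tested. The shares of all probe sets called under these settings are not given beside them, so no change is shown to be particular to the members. Over all conditions, old against young gave 7 without the sham arrays and 5 without both PH 1 h groups, alternatives chosen after seeing the data.

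Leaving out each array in turn gave 0 to 7, 6 to 16 and 9 to 15 members for PH against 0 h at 1, 2 and 4 h. It gave 22 to 32, 35 to 45, 15 to 31 and 14 to 23 for PH against sham, and 14 to 25, 24 to 38, 16 to 38 and 18 to 34 for sham against 0 h, at 0.5, 1, 2 and 4 h. It gave 5 to 16 from PH 0.5 to 4 h, 0 to 3 for the change in PH minus sham, 1 to 2 in young and 3 to 8 in old livers, and 8 to 19 for old against young over all conditions. These counts too are given without the share of all probe sets called in each fit. Same-numbered replicates did not deviate together (mean r 0.01 against 0.00 for other numbers, with 13 of 153 group pairs over 0.1 throughout), so no pairing was assumed. With the replicate block 5, 11 and 12 members were called at 1, 2 and 4 h after PH, and 13 for old against young over all conditions. The signs of some uncalled differences at PH 4 h turned. Cox4i1 102124_f_at was at -0.0087 with the spike-in covariate and -0.0539 to 0.0530 when arrays were left out, and Cox8b 160851_r_at at -0.0216 with array weights and -0.0196 to 0.0583. Leaving out arrays gave -0.0142 to 0.0474 for Cox7a1, -0.0715 to 0.0471 for Cox8b 161205_at, -0.0075 to 0.0697 for Cyc1 95072_at, -0.0901 to 0.0216 for Cox6b2 97351_i_at and -0.0689 to 0.0176 for Cycs. In all, 387 of the counts under alternatives stayed within 1.5 times, 58 moved by more, 17 fell to 0 and 3 rose from 0, and of the single members' differences 4218 kept direction and side of the threshold, 384 lost and 4 gained the call and 22 changed sign. Signal over background cannot be read from these values.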
